A study of Mus musculus with 14 samples.

Results

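RUNX2 and trimethylated histone H3 lysine 4 (H3K4me3) were compared along the genome in ATDC5 cells on day 3 of differentiation, from the 2 RUNX2 and the 2 H3K4me3 peak lists of that day. The peaks of the 4 lists were pooled and overlapping peaks were merged, and each merged region was then classed by the lists that held a peak in it. This gave 34973 regions from 91612 peaks, of the 42888 regions that all 12 peak lists of the series gave. Of these, 14301 had a peak in all 4 lists, 125 in both RUNX2 lists and neither H3K4me3 list, and 2160 in both H3K4me3 lists and neither RUNX2 list. The other 18387 held another mix, most often a peak of a single H3K4me3 list. The series has 14 samples, made by chromatin immunoprecipitation and sequencing on days 0, 3 and 10, and 2 of them are input libraries that were not analysed here.

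RUNX2 is a runt-domain transcription factor that binds a short DNA motif together with CBFB and is required for osteoblast formation and for the maturation of growth plate chondrocytes. H3K4me3 is a histone mark laid down by COMPASS-type methyltransferases, and it lies mainly at the starts of genes that are transcribed or poised, above all at CpG-rich promoters. ATDC5 is a line derived from a mouse teratocarcinoma whose cells condense and form cartilage matrix in culture. All 4 libraries came from cells of this line that carry no labelled genetic change. The cells were plated as dense droplets and then kept in medium with β-glycerophosphate and an ascorbate phosphate, which permit matrix formation and mineral deposition. Day 0 cells were undifferentiated. Whether the 2 libraries of an antibody stand for separate cultures is not in the labels, and a p-value over libraries then measures a spread that may be technical.

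The promoters below are those of genes the results turn on. They were read from RefSeq (GRCm38.p6) and run 5′ to 3′ on the gene's strand from 250 bases before to 50 bases after the annotated start. Capitals mark 2 short motifs searched on both strands. One is the RUNX core motif TGTGGT, which reads ACCACA on the other strand. The other is GAAA, any 2 bases and GAAA again, which reads TTTC, any 2 bases and TTTC on the other strand and is the core of the element through which interferon activates genes. Runx2 (chr17:44814578-44814877, minus strand) and Acan, which encodes aggrecan (chr7:79052976-79053275, plus strand), had a region of all 4 lists at the start. Gm51425 (chr17:17004866-17005165, plus strand) was the best-ranked gene of that class with a promoter in the table.
Runx2: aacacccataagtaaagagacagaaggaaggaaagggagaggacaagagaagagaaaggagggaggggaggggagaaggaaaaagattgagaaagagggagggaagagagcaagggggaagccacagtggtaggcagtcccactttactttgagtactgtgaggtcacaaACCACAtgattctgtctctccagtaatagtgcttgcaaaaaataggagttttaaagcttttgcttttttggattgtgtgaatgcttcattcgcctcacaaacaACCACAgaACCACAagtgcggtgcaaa
Acan: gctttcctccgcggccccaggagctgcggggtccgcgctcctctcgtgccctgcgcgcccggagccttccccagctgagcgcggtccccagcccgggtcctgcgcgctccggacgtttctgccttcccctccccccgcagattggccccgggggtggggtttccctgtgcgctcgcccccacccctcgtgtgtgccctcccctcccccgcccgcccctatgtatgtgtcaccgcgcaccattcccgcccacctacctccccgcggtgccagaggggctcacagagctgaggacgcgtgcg
Gm51425: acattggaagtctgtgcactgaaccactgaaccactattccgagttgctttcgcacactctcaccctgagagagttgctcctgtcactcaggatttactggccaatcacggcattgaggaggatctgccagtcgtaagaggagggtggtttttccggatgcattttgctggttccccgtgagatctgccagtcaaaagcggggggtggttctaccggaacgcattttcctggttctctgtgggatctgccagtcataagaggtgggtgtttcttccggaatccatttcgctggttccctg
Cbfa2t3 (chr8:122678126-122678425, minus strand), a transcriptional corepressor of the family that RUNX1 is fused to in leukaemia, ranked first among genes with H3K4me3 alone. Ihh (chr1:74951623-74951922, minus strand) encodes Indian hedgehog, the signal of prehypertrophic chondrocytes and a known RUNX2 target, and also had H3K4me3 alone.
Cbfa2t3: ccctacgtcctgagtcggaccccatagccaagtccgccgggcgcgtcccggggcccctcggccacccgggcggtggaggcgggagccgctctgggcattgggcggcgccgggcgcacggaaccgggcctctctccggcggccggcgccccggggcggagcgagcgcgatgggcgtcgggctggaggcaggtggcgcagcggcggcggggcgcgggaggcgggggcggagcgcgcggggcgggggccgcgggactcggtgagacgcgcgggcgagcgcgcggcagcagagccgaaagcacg
Ihh: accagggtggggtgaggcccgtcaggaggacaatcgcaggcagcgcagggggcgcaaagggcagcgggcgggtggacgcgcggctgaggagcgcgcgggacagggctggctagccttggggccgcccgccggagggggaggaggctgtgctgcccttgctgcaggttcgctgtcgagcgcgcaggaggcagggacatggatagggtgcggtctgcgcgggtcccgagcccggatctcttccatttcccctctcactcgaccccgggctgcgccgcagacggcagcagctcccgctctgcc
Apol9b (chr15:77728871-77729170, plus strand) ranked first among genes with RUNX2 alone, and Oas3 (chr5:120777610-120777909, minus strand), an interferon-induced oligoadenylate synthetase, was in the same class. Ihh and Oas3 were chosen for printing after their values had been seen.
Apol9b: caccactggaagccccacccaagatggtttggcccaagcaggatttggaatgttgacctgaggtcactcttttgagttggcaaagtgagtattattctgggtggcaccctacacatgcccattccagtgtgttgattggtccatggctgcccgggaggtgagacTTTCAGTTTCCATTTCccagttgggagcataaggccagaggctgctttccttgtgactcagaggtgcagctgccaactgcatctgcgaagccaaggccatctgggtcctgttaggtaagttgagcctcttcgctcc
Oas3: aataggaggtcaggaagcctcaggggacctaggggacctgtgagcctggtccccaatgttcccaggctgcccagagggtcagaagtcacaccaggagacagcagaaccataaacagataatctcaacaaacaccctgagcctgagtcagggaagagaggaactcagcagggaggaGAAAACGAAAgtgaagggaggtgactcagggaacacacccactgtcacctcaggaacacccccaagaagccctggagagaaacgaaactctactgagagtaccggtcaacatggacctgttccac
The Runx2 promoter held 3 copies of the RUNX motif, and the promoters of Acan, Gm51425, Cbfa2t3, Ihh, Apol9b and Oas3 held none. The interferon element occurred 2 times, overlapping, in Apol9b and 1 time in Oas3.

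Facts about the 4 lists bear on every result. RUNX2 replicates 1 and 2 had 19319 and 16859 peaks on assembled chromosomes, and H3K4me3 replicates 1 and 2 had 28653 and 26781. The RUNX2 lists of days 0 and 10 had between 97 and 108 peaks, so day 3 was the only day with a RUNX2 list of comparable size. The 2 RUNX2 day 3 lists placed their summits, the base of highest signal in a peak, at almost the same positions. In 14540 regions with exactly 1 peak of each, 8127 pairs (55.9%) had the identical summit base and 92.6% lay within 10 bp. Over the 15 pairs of H3K4me3 lists, 0.144 to 0.733% of summits were identical and 3.31 to 9.23% lay within 10 bp. The lists were not copies, since their peak numbers differed and the fold enrichment of replicate 1 was at the median 0.722 times that of replicate 2. Whether they come from separate chromatin was not tested, and their closeness is not read as that of independent replicates. The RUNX2 day 3 lists were also closer to H3K4me3 replicate 1 of day 10 than to the H3K4me3 lists of their own day. Their summits lay at a median of 65 and 66 bp from those of that list, against 136 to 153 bp from the day 3 lists. From the other H3K4me3 lists of days 0 and 10 they lay at 98 to 135 bp. Across regions with 1 peak of each, Spearman's rho of peak strength was 0.786 and 0.877 with that list, as a description. It was 0.757 and 0.707 with H3K4me3 replicate 1 of day 3 and 0.645 and 0.649 with replicate 2 of day 3 (RUNX2 replicates 1 and 2). The 2 H3K4me3 replicates of day 10 had summits 129 bp apart. Whether the antibody labels of the RUNX2 day 3 lists hold, or whether these libraries contain H3K4me3 material, was not tested, and "RUNX2" below means the lists labelled RUNX2 day 3.

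RUNX2 lists were shorter than H3K4me3 lists, beyond the spread between the libraries. The mean was 18089 ± 1739 peaks (SD, n = 2) for RUNX2 and 27717 ± 1324 (SD, n = 2) for H3K4me3, a log2 difference of -0.62, and the 4 values did not overlap. A two-sided exact permutation test gave p = 0.333, the smallest value that 2 libraries against 2 allow, and the same p = 0.333 with the RUNX2 lists counted as 1 sample. The median peak was 958 and 1238 bp wide in the RUNX2 lists and 936 and 794 bp in the H3K4me3 lists, a log2 difference of 0.34 (two-sided exact permutation p = 0.333, or 0.667 with the RUNX2 lists as 1 sample). That direction turned with the number of weak peaks kept. With the 16859 strongest peaks of each list the difference was -0.41, and with peaks of −log10 q of at least 5 it was -0.19.

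Nearly all regions of the lists labelled RUNX2 carried H3K4me3. Of 14656 regions with a peak in both RUNX2 lists, 97.6% (95% exact Clopper-Pearson interval 97.3 to 97.8%) had both H3K4me3 lists, 1.57% had one of them and 0.853% had neither. The reverse share was lower. Of 17483 regions with both H3K4me3 lists, 81.8% (81.2 to 82.4%) had both RUNX2 lists, 5.85% had one and 12.4% had neither. These intervals cover counting error only, because regions of one library are not replicates. In bases, 97.3 and 97.8% of the sequence under the RUNX2 peaks of replicates 1 and 2 lay under peaks of H3K4me3 replicate 1, and 93.3 and 93.0% under those of replicate 2. Between 52.3 and 76.0% of the bases under an H3K4me3 list lay under a RUNX2 list. The share of H3K4me3 regions with RUNX2 fell to 58.5% when H3K4me3 replicate 1 was left out and to 51.2% when replicate 2 was, since regions of a single H3K4me3 list then count. For the same reason the regions with H3K4me3 alone rose to 9341 and 12359. The regions with RUNX2 alone numbered 726 without RUNX2 replicate 2 and 350 without H3K4me3 replicate 1.

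**Figure D1:**
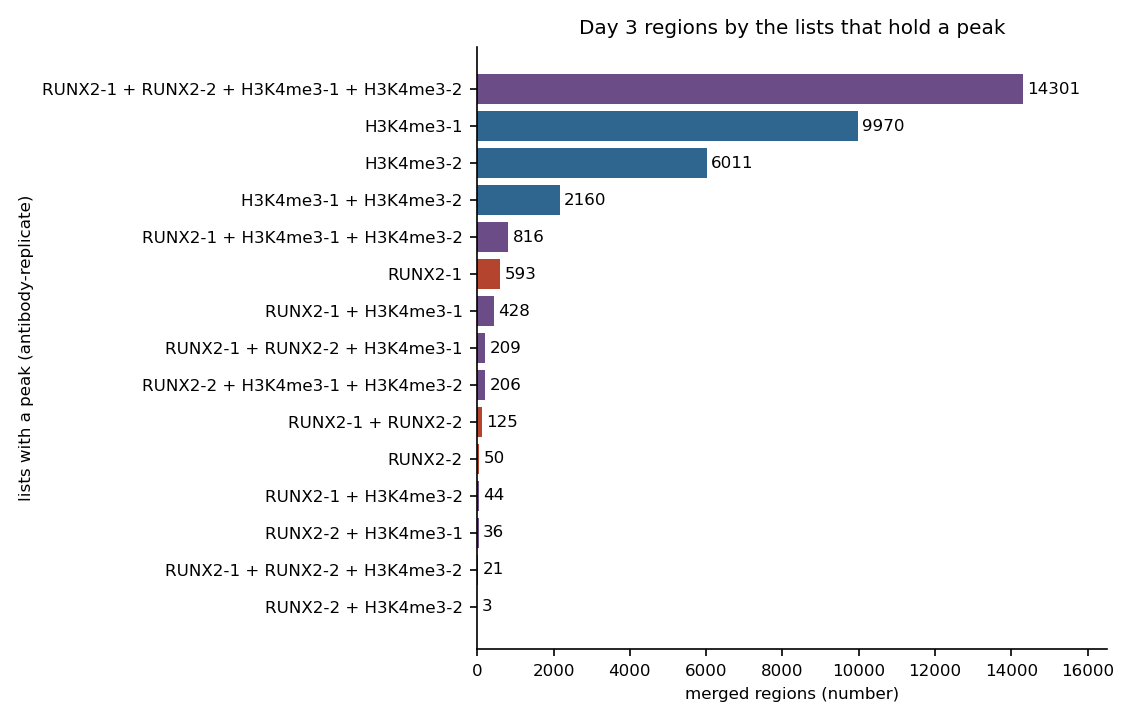
Number of merged day 3 regions (horizontal axis) for each combination of lists that held a peak (vertical axis), with RUNX2 alone in red, H3K4me3 alone in blue and both in purple. The largest group, 14301 regions, had all 4 lists, and 9970 and 6011 regions had a peak of 1 H3K4me3 list alone.

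Sharing followed the strength of the peak. Regions were ranked by their −log10 p within each list and divided into 5 equal groups by the mean rank. Among H3K4me3 regions, 27.0% of the weakest group had both RUNX2 lists, 83.8% of the next, 98.7% of the middle group, 99.6% of the one above it and 99.9% of the strongest. Among RUNX2 regions, 88.7% of the weakest group had both H3K4me3 lists, and 99.3% of the next did. In the strongest group all 2931 RUNX2 regions did. Of the 125 regions with RUNX2 alone, 118 lay in the weakest group of RUNX2 regions, and of the 2160 with H3K4me3 alone, 1938 lay in the weakest group of H3K4me3 regions.

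**Figure D2:**
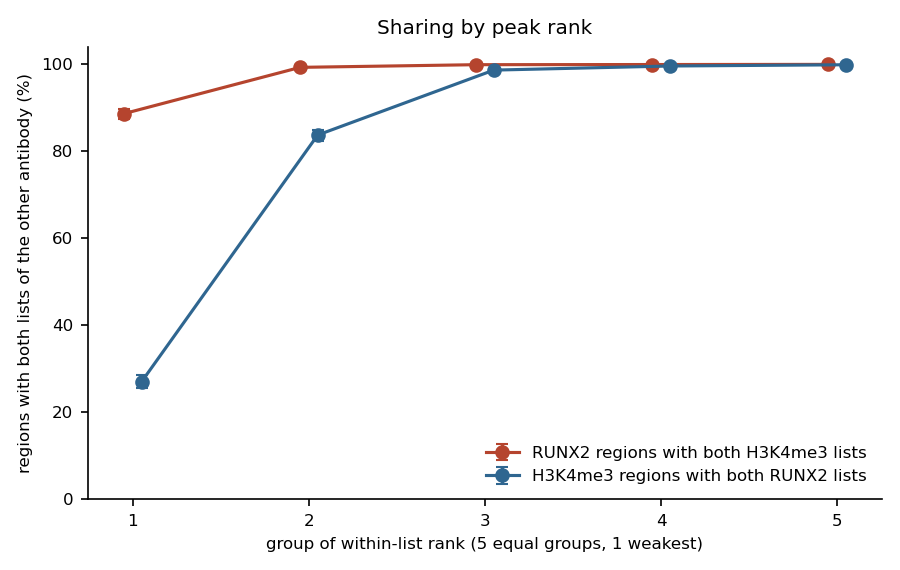
Share of regions with both lists of the other antibody (vertical axis, percent) by group of within-list rank (horizontal axis, 5 equal groups, 1 weakest), for RUNX2 regions in red and H3K4me3 regions in blue. Bars are 95% exact intervals for counting error. The H3K4me3 curve climbs from 27.0 to 99.9%, and the RUNX2 curve starts at 88.7%.

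Peaks of the 3 classes differed in width and rank in every list. In regions of all 4 lists the RUNX2 peaks covered a median of 1244 and 1441 bp and the H3K4me3 peaks 1849 and 1579 bp (replicates 1 and 2). With RUNX2 alone the medians were 376 and 345 bp, and with H3K4me3 alone 567 and 360 bp. The median percentile rank, where 100 is the strongest peak of a list, was 62.2 and 56.8 for RUNX2 and 75.0 and 72.2 for H3K4me3 in the shared regions. It was 8.00 and 5.26 for regions with RUNX2 alone and 38.9 and 31.2 for regions with H3K4me3 alone. Both unshared classes therefore sat lower in their lists than the shared class in both libraries of the antibody. The lists differ in length, so ranks are not compared between antibodies.

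Within shared regions the RUNX2 peak was mostly narrower than the H3K4me3 peak. With the 2 libraries of each antibody averaged, the ratio of covered bases was 0.786 at the median, and RUNX2 was narrower in 94.6% of the 14301 regions. Single pairs of lists gave 69.8 to 97.5%, the lowest for RUNX2 replicate 2 over H3K4me3 replicate 2. The 4 pairs of lists gave medians from 0.672 (RUNX2 replicate 1 over H3K4me3 replicate 1) to 0.926 (RUNX2 replicate 2 over H3K4me3 replicate 2), so the ratio varied with the libraries while all 4 medians stayed below 1. The ranks of the 2 antibodies moved together over these regions, with Spearman's rho of 0.589 to 0.671 between antibodies, 0.763 between the H3K4me3 lists and 0.840 between the RUNX2 lists. These are descriptions across regions that share libraries.

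On day 3, RUNX2 summits lay further from H3K4me3 summits than the summits of the 2 H3K4me3 libraries lay from each other. The median distance in shared regions was 170, 175, 172 and 176 bp for the 4 pairs across antibodies and 115 bp between the H3K4me3 libraries. Between 35.0 and 36.1% of summits lay within 100 bp across antibodies, against 47.0% between the H3K4me3 libraries. Over 500 bp apart were 22.6 to 23.2% across antibodies and 15.4% between the H3K4me3 libraries. Across days this did not separate the antibodies. In regions with 1 peak of each list, the medians were 136 to 153 bp for the 4 pairs of day 3 across antibodies, 89 to 206 bp over the 15 pairs of H3K4me3 lists, and 166 bp between the H3K4me3 replicates of day 0. The median of the 4 pairs, 173.2 bp on average, was 140 bp when the nearest pair of summits was taken in each region and 145.5 bp in regions with 1 peak in each list.

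The distance grew with the width of the H3K4me3 region, and a wider region allows a larger distance. From the narrowest to the widest of 5 equal groups, the median distances across antibodies were 78 to 79, 105 to 116, 171 to 192, 328 to 344 and 561 to 573 bp. Between the H3K4me3 libraries they were 70, 93, 120, 174 and 296 bp. In the narrowest regions the antibodies were thus little further apart than the 2 H3K4me3 libraries, and the gap opened in the wider ones.

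**Figure D3:**
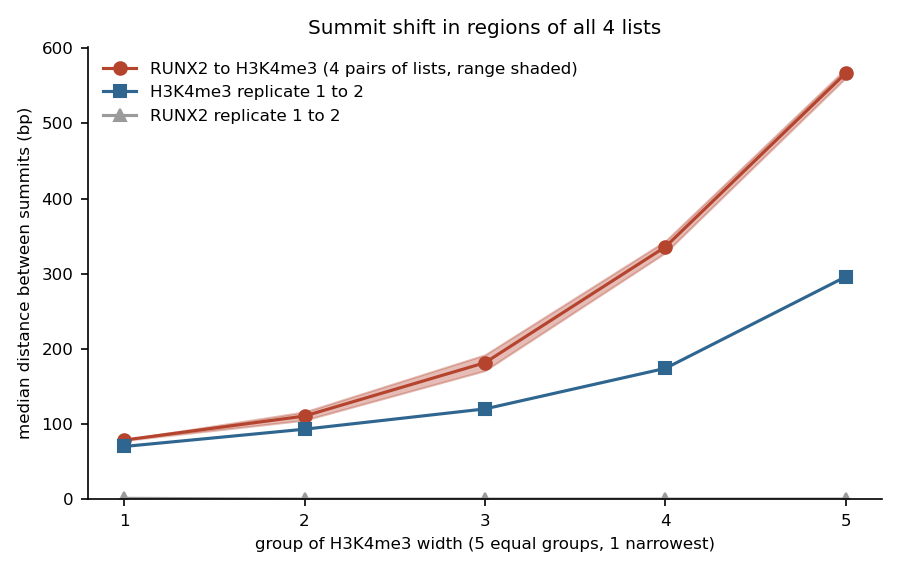
Median distance between summits in base pairs (vertical axis) by group of H3K4me3 width (horizontal axis, 5 equal groups, 1 narrowest) in the 14301 shared regions. Red is RUNX2 to H3K4me3 with the range over 4 pairs of lists shaded, blue the 2 H3K4me3 lists and grey the 2 RUNX2 lists, which stay at 0 or 1 bp. The red curve reaches 561 to 573 bp and the blue one 296 bp.

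The shift had a direction relative to genes. Of the shared regions, 8897 contained an annotated start of a protein-coding gene inside the region. Exactly one lay inside 7085 of them, and these were oriented by strand. RUNX2 summits lay at a median of +278 and +279 bp, downstream of the start in the direction of transcription, with 90.1 and 90.3% downstream. H3K4me3 summits of day 3 lay at +139 and +144 bp, with 66.7 and 67.3% downstream. They fell in 2 groups on either side of the start, since 31.0 and 30.1% lay more than 100 bp upstream, against 8.36 and 8.24% of RUNX2 summits. Where the H3K4me3 summit was upstream, in 2355 regions for replicate 1 and 2313 for replicate 2, the median distance to the RUNX2 summit was 544 to 555 bp over the 4 pairs of lists. Elsewhere the median was 123 to 131 bp.

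H3K4me3 libraries of the other days varied in the same measure. The medians were +293 and +178 bp on day 0 and +251 and +157 bp on day 10 (replicates 1 and 2), with 89.1, 74.7, 90.7 and 69.4% downstream. Replicate 1 of days 0 and 10 thus resembled the RUNX2 lists, and replicate 2 of both days lay nearer to the H3K4me3 lists of day 3. The shortest peak of a list moved with this. It was 254 bp in both RUNX2 lists and 295 and 245 bp in replicate 1 of days 0 and 10. In H3K4me3 replicate 2 of those days it was 225 and 216 bp, and in the day 3 lists 214 and 215 bp. Its part in the summit positions was not tested. A downstream summit was therefore not particular to the RUNX2 antibody in these libraries.

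**Figure D4:**
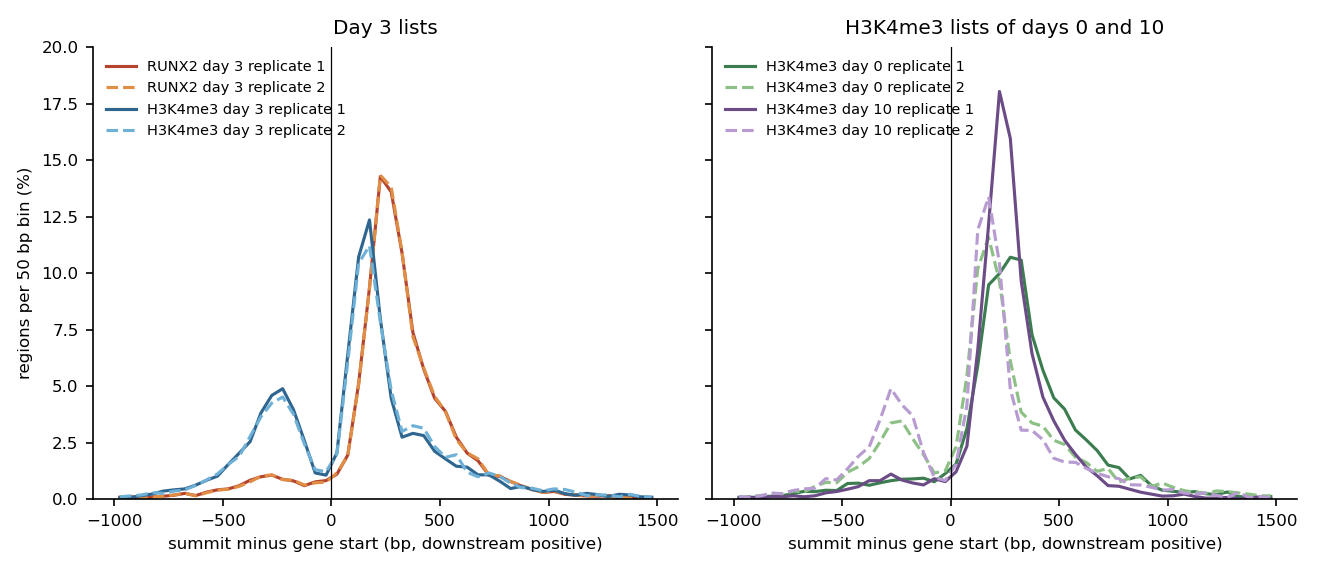
Distribution of summits around the gene start (horizontal axis in base pairs, downstream positive; vertical axis, percent of regions per 50 bp bin) for shared regions with 1 annotated start. Left, the day 3 lists: the RUNX2 curves lie on each other with 90.1 and 90.3% downstream, and the H3K4me3 curves have a second group upstream. Right, H3K4me3 of days 0 and 10: replicate 1 has 89.1 and 90.7% downstream, replicate 2 74.7 and 69.4%.

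The 5 largest shifts among shared regions at protein-coding genes, with the libraries of each antibody within 200 bp of each other, were in wide domains. At Myo1c, a class I myosin, the summits were 3950 bp apart in chr11:75651106-75657059. At Tns2, a tensin of focal adhesions, they were 3024 bp apart, with the RUNX2 summit 212 bp downstream of the start in both lists and the H3K4me3 summit at -2850 and -2773 bp, upstream of it. Zc3h4, a zinc finger protein that restrains noncoding transcription, had summits 2906 bp apart, Zfp36l2, an mRNA decay factor, 2454 bp, and Spry2, an inhibitor of receptor tyrosine kinase signalling, 2382 bp. Over the 8637 regions that met the same condition the median was 115.5 bp. In these 5 regions the H3K4me3 peaks of replicate 1 covered between 4419 and 9509 bp, against a median of 1849 bp in the class. Shifts of this size can only lie in wide regions, so that width follows from the selection.

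The classes lay in different places. Of the shared regions, 77.5% were within 1000 bp of the start of a protein-coding gene (of either end of the gene where no start is annotated in the table). With H3K4me3 alone the share was 21.8% and with RUNX2 alone 16.0%. Of the regions with RUNX2 alone, 26.4% lay inside a coding gene away from its start and 40.8% between genes, and with H3K4me3 alone 29.0 and 36.9%. The median distance to a protein-coding gene start or end was 374 bp for shared regions, 13120 bp for H3K4me3 alone and 41080 bp for RUNX2 alone.

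Most marked genes had both. A shared region lay at 11946 of 21883 protein-coding genes (54.6% of all), H3K4me3 alone at 364 (1.66%), RUNX2 alone at 18 (0.0823%), another mix at 583 (2.66%) and no region at 8972 (41.0%). Shares of gene lists are read against these values. All 20 cytosolic ribosomal protein genes, all 23 cell cycle genes and all 27 genes of the RUNX family and its partners had a shared region. So did 16 of 17 genes of the H3K4 methylation machinery, all but Ash2l. Genes with H3K4me3 alone numbered 660 without H3K4me3 replicate 2 and 83 with equal numbers of peaks in the lists.

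Skeletal genes were divided. Of 12 chondrocyte transcription factors, 11 had a shared region and Sox5 had none. Of 25 genes of BMP and TGF-beta signalling, 20 were shared and Gdf5, a joint morphogen, had H3K4me3 alone. Of 27 limb patterning genes, 17 were shared, and Alx4, Hand2, Hoxd11, Pitx1 and Tbx15 had H3K4me3 alone. Of 16 genes of mature and hypertrophic chondrocytes, 11 were shared. Of 20 cartilage matrix genes, 7 were shared and 3 had H3K4me3 alone, namely the collagen IX genes Col9a1 and Col9a2 and the matrilin gene Matn4. Col11a2, Matn3 and Snorc held another mix. Of 17 osteoblast genes, 8 were shared and Bmp3 and Dlx3 had H3K4me3 alone, and of 15 textbook RUNX2 targets, 7 were shared, a share (46.7%) near the 54.6% of all genes. No gene of any of the 19 lists had RUNX2 alone, which is near the 0.0823% of all protein-coding genes. The calls of H3K4me3 alone rest on weak peaks: of the 18 list members with it, 16 lost the call with equal numbers of peaks in the lists, all but Dlx3 and Gdf5. With −log10 q of at least 5, 7 lost it, namely Ihh, Col9a1, Col9a2, Hand2, Pitx1, Esrp1 and Sall4.

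**Figure D5:**
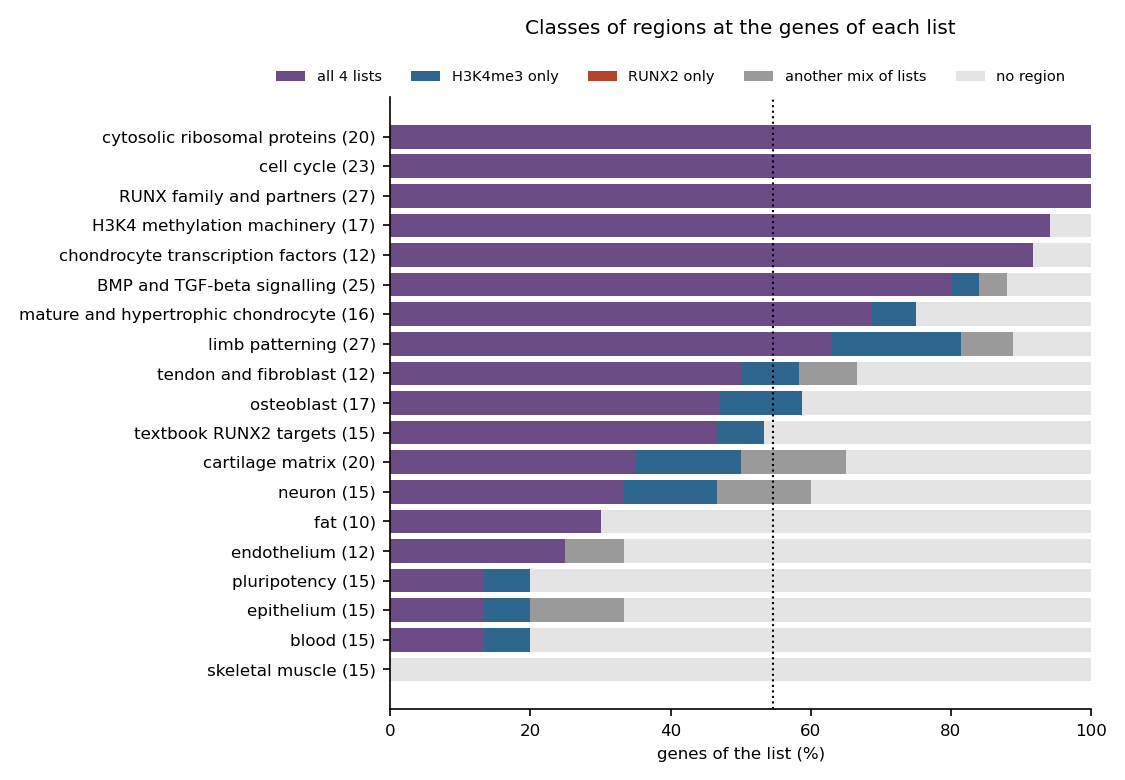
Share of the genes of each list (horizontal axis, percent; number of genes in brackets) by the class of region at the gene. The dotted line marks the 54.6% of all protein-coding genes with a region of all 4 lists. Ribosomal, cell cycle and RUNX partner genes reach 100%, cartilage matrix genes 35.0%, and skeletal muscle genes 0.

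Genes that define other cell types were mostly without a shared region. None of 15 skeletal muscle genes had a region of any list, and 2 of 15 genes each of the pluripotency, blood and epithelium lists had a shared one. The counts were 3 of 12 for endothelium, 3 of 10 for fat, 5 of 15 for neurons and 6 of 12 for tendon and fibroblast. Gad1 and Neurod2 of neurons, Sall4 of pluripotent cells, Tal1 of blood, Esrp1 of epithelium and Pdgfra of fibroblasts had H3K4me3 alone, a call that all 6 lost with equal numbers of peaks. A peak at a gene does not measure its expression, so these counts describe chromatin and not the makeup of the culture.

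A set of 12 genes of cartilage and bone was followed gene by gene. Runx2 itself lay under a shared region, chr17:44812488-44815792. Its fold enrichment at the summit, over the caller's local background, was 5.89 and 6.31 with the RUNX2 antibody and 21.5 and 7.98 with H3K4me3. Its RUNX2 percentile ranks were 51.7 and 36.1 and its H3K4me3 ranks 78.9 and 76.9, and all 4 summits lay 310 to 397 bp downstream of the start whose promoter is printed above. RUNX2 thus ranked near or below the middle of its lists at its own gene.

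Sox9, the master regulator of chondrocyte fate, had a shared region of 7314 bp (chr11:112779620-112786933). Its RUNX2 ranks of 55.2 and 96.9 were far apart, and its H3K4me3 ranks were 92.0 and 87.2. Sp7, the osteoblast factor osterix, had the same spread, with RUNX2 ranks of 42.5 and 93.2 and H3K4me3 ranks of 90.0 and 88.6. At both genes the RUNX2 summits of the 2 lists were identical while the ranks disagreed, so the rank there cannot be given as one value.

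Col2a1, the main collagen of cartilage, had a shared region (chr15:97999884-98005233) with RUNX2 ranks of 40.7 and 55.3 and H3K4me3 ranks of 68.5 and 67.4. Its shared call was lost when the summit had to lie within 1000 bp of the start or end taken for the gene, as were those of Zc3h4 and Zfp36l2 above. Acan, its partner in the matrix, ranked low with RUNX2, at 12.1 and 15.6, and at 59.8 and 52.5 with H3K4me3. The RUNX2 peaks at Acan covered 501 and 1270 bp of an H3K4me3 domain that covered 5244 and 4695 bp (chr7:79051951-79057282), and their summits lay 192 and 190 bp downstream of the start, against 451 and 585 bp for H3K4me3. When the lists were held to the same number of peaks, Acan left the shared class. Both H3K4me3 lists of day 10, and neither list of day 0, had a peak there.

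Spp1, which encodes osteopontin, had RUNX2 ranks of 41.9 and 29.3 and H3K4me3 ranks of 71.2 and 66.3. It too had H3K4me3 peaks in both lists of day 10 and none on day 0. Alpl, the alkaline phosphatase of mineralising cells, had RUNX2 ranks of 39.3 and 38.5 and H3K4me3 ranks of 59.6 and 46.1, with H3K4me3 in all lists of days 0 and 10. At Col2a1, Acan, Spp1 and Alpl both RUNX2 ranks lay below the class medians of 62.2 and 56.8, and both H3K4me3 ranks below 75.0 and 72.2.

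Ihh had H3K4me3 alone, in a small region of 490 bp (chr1:74951198-74951687) with ranks of 29.7 and 8.29 and fold enrichments of 5.45 and 3.97. It held a peak in both H3K4me3 lists of day 10 and in none of day 0. Its call rests on weak peaks: with −log10 q of at least 5, or with equal numbers of peaks, Ihh no longer had H3K4me3 in both lists. Col10a1, the collagen of hypertrophic cartilage, Mmp13, the collagenase of its turnover, Bglap (osteocalcin) and Ibsp (bone sialoprotein) had no region in any of the 4 lists. No peak means none called at the depth of these libraries, which is unknown here.

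The strongest shared regions at protein-coding genes clustered on chr17. The 10 best-ranked genes of the class lay at 9 regions, since Gm3435 and Gm3448 share one. Of these genes, 9 lay on chr17: 9030025P20Rik, Gm51425, Gm5165, Gm3435, Gm3448, Zfp960, Phf10, Gm3417 and Gm38396. The tenth was Mcmdc2 on chr1. At Gm5165 the fold enrichment was 8.77 and 13.4 with RUNX2 and 38.2 and 11.9 with H3K4me3. Gm51425, whose promoter is printed above, had RUNX2 ranks of 99.89 and 99.9 and H3K4me3 ranks of 99.86 and 99.8. Copy number was not measured here. How the authors placed reads that match several places is not given in the sources used here, so values at genes with near-identical copies would be uncertain.

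Among the 10 best-ranked genes of regions with H3K4me3 alone, Cbfa2t3 had a region at chr8:122677330-122679098 with ranks of 55.8 and 85.7 and fold enrichments of 13.8 and 15.1. Others among them were 2610507B11Rik, Ovol1, Ypel5, Susd1, Calm3, Ccdc110 and Fam90a1b. A shared region also lay at 2610507B11Rik, Ypel5, Calm3, a calmodulin gene, and Fam90a1b, so these count as shared genes and the region with H3K4me3 alone was a second one. In that second region the H3K4me3 summits of 2610507B11Rik, Ypel5 and Calm3 lay upstream of the start, at -429 and -433, -546 and -551, and -442 and -499 bp. The 18 members of the gene lists with H3K4me3 alone all ranked below the medians of the shared class, 75.0 and 72.2: their ranks ran from 16.6 to 52.6 in replicate 1 and from 2.06 to 43.6 in replicate 2.

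Genes with RUNX2 alone were few, and their peaks were weak. The 18 genes were Apol9b, Ifi44, Plch2, Spin2c, Khdrbs3, Oas3, Tmsb15b2, Kcnh2, Dmpk, Dok5, Selp, Kctd12b, Oas1a, Cadps2, Apol6, Rtl8c, Cby3 and Csrnp3. The count was 47 without RUNX2 replicate 2, 71 without H3K4me3 replicate 1 and 76 with equal numbers of peaks, where 9 of the 18 remained in the class. With −log10 q of at least 5, 12 of the 18 remained. Apol9b, an apolipoprotein L, had fold enrichments of 7.92 and 6.46 and ranks of 50.0 and 29.8 in chr15:77729101-77730214, with both summits 337 bp downstream of its start. Ifi44 had fold enrichments of 7.86 and 8.71 and ranks of 44.5 and 32.4 in chr3:151748712-151749979, with summits at +411 and +413 bp. The 2 genes had the highest ranks of the 18.

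Oas3 had fold enrichments of 4.65 and 4.69 and ranks of 21.3 and 15.2, and Oas1a, another oligoadenylate synthetase, 3.28 and 2.66 with ranks of 2.63 and 0.294. Oas1a left the class under both of those settings. Ifi44, Oas3 and Oas1a are textbook interferon-induced genes, a group picked out, with the element above, after the names had been seen. None of the 3 had an H3K4me3 peak on day 0. Ifi44, Oas1a and Apol9b had one in replicate 2 of day 10 and not in replicate 1. Of the 10 promoters that a region with RUNX2 alone overlapped, 4 held the interferon element, in Apol9b (2 overlapping entries), Oas3 and Slfn8. The promoter of Ifi44 did not hold it. Slfn8 is not among the genes with RUNX2 alone named above, since a gene that also has a shared region counts as shared. The element was in 3.35% of all promoters and in 2.73% of those with a shared region. With 10 promoters, 2 of which share sequence, these counts are a description.

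Away from genes, the RUNX2-only region with the highest mean rank was chr15:75085505-75087113, 25172 bp from Ly6c2. It rested on 1 library, with a fold enrichment of 12.0 and a rank of 99.9 in replicate 1 against 1.79 and 18.4 in replicate 2. The region nearest to Cyp51 was similar, with 5.78 against 2.29. The regions nearest to Spring1, Kif6 and 1810013L24Rik had fold enrichments of 6.80 and 6.47, 5.79 and 5.25, and 5.44 and 9.44. They lay between 148514 and 213860 bp from those genes.

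H3K4me3 on other days, which the classes did not use, was more frequent in the shared regions than in either unshared class. Most unshared regions were in the weakest rank group of their antibody. The classes were not matched for rank, and its part here was not tested. Of the shared regions, 79.5% had H3K4me3 in both libraries of day 0 and 91.1% in both of day 10. Of the regions with RUNX2 alone, 0.8 and 5.6% did, and of those with H3K4me3 alone, 0.417 and 5.23%. The 2 libraries of day 10 differed: replicate 2 had a peak in 39.2% of the regions with RUNX2 alone and 75.2% of those with H3K4me3 alone, replicate 1 in 8 and 5.37%. No H3K4me3 list of days 0 and 10 had a peak in 55.2% of the regions with RUNX2 alone, 21.2% of those with H3K4me3 alone and 0.0769% of the shared regions. The RUNX2 lists of days 0 and 10, of only 97 to 108 peaks each, overlapped between 30 and 33 of the 14301 shared regions. They overlapped 1 or 2 of the 125 regions with RUNX2 alone and 0 or 1 of the 2160 with H3K4me3 alone.

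Promoters with a shared region held the RUNX motif in a smaller share than all promoters together. Of 21262 promoters of 300 bases, 15.0% held TGTGGT on either strand, against 10.8% of 11332 with a shared region, 9.13% of 252 with H3K4me3 alone, 2 of 10 with RUNX2 alone and 20.3% of 9273 with no region. Where the RUNX2 summit of replicate 1 itself lay in the promoter, 58 of 658 (8.81%) held it. The longer form TGTGGTT, which contains the first motif, was in 4.71% of all promoters and 3.05% of shared ones. Base composition moved with the classes. The median ratio of observed to expected CpG was 0.797 for shared promoters, 0.686 for H3K4me3 alone and 0.208 both for RUNX2 alone and for promoters with no region. Within promoters of a ratio from 0.5 to 0.75, 12.2% of those with a shared region and 12.0% of those with none held the motif. The direction differed between the other ranges of the ratio. In both ranges below 0.5 the share was lower in shared promoters than in those with no region, with 18.3 against 23.7% under 0.25. In both ranges above 0.75 it was higher in shared promoters, with 9.46 against 6.48% from 0.75 to 1. The part of base composition in the lower share of all shared promoters was not tested. A match is a description of the letters in this window, and most RUNX2 summits lay downstream of it.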

How the data were processed

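Chromatin immunoprecipitation with sequencing was analysed from the authors' narrowPeak lists, 1 per library. The submitters' processing notes name MACS2 for peaks, HISAT2 2.2.0, and Trim Galore and FastQC for reads, which were 75 bp long per the labels. The sources used here do not give settings, duplicate removal or the use of input. The deposited columns hold the fold enrichment at the summit, a linear ratio to the caller's background, the −log10 of the p-value and of the q-value, a score (found to equal 10 times the −log10 q to within 1), and the summit offset. The authors' limit was a q-value of 0.05, as read from the smallest values. They were used within a list, except in a ratio of fold enrichment between the RUNX2 lists and in the check of pairing. Depth in reads is unknown, so precision rests on the number of regions and libraries.

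The processing notes name GRCm39, but peaks on chromosome 1 run past its end in that build, and the lists were read as GRCm38. Peaks on assembled chromosomes were merged at an overlap of 1 bp. In a region, the peak with the highest −log10 p stood for a list. A gene took a region within 1000 bp of an annotated start in RefSeq GRCm38.p6 (17491 of 21883 coding genes) or, for the other 4392, of either end of the gene. Where several classes lay at a gene, the shared class took precedence, then RUNX2 alone, then H3K4me3 alone.

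Numbers and widths of peaks were tested over libraries with exact permutation tests, and all else is described. Code was tested on simulated peaks (Python 3.11.15, pandas 2.3.3, numpy 2.4.6). Named genes were 12 fixed genes, the 10 best-ranked coding genes of each class, the 5 best RUNX2-only regions away from genes, the 5 largest shifts and the list members with 1 antibody alone. The other RUNX2-only genes were named after their values were seen. Some genes that the rule selects are not reported here. The lists hold 314 genes, all matched. Regions, classes and lists were chosen with earlier results of these data known. Same-numbered libraries deviated with a correlation of -0.109 in log2 fold enrichment over 14301 shared regions. Alternatives were a stricter q, equal list lengths, each library left out, other overlap and joining rules, other summit pairs and other gene windows.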

Additional observations from a re-analysis of the deposited data

How the results depend on the processing

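Of 154 values recomputed under the alternatives, 109 counted as unchanged, 43 as moved and 2 as reversed. Counts of regions and genes were unchanged within a factor of 1.5. Shares, shifts, widths and ranks by class were unchanged within the SD over the main libraries or their pairs. The number and median width of peaks per list were judged by direction alone. The cause of moves other than those fixed by longer or shorter lists or fewer libraries was not tested. With −log10 q of at least 5, regions with H3K4me3 alone numbered 1389, H3K4me3 regions with RUNX2 86.3%, the summit shift 176.5 bp, RUNX2-only genes 28, the log2 width of shared over unshared peaks 1.59 for H3K4me3 and 1.48 for RUNX2, their rank difference 43.8 and 49.0 points, and the log2 difference in median width reversed to -0.19. With equal numbers of top peaks, regions with RUNX2 alone numbered 247 and with H3K4me3 alone 617, the shares were 94.9 and 91.9%, the shift 179.8 bp, the log2 widths 1.35 and 1.48, the rank differences 47.1 and 48.9, the genes 76 and 83, and the median width reversed to -0.41. The shift was 178.8 bp with peaks up to 500 bp apart joined, 140 bp for the nearest summits and 145.5 bp with 1 peak in each list. Leaving out each library gave 147 to 726 regions with RUNX2 alone (726 without RUNX2 replicate 2, 350 without H3K4me3 replicate 1), 2396 to 12359 with H3K4me3 alone (9341 without H3K4me3 replicate 1, 12359 without replicate 2), shares of 91.3 to 99.0% and 51.2 to 86.3%, shifts of 159.5 to 172 bp, log2 widths of 1.79 to 2.53 and 1.56 to 2.11, rank differences of 35.9 to 52.1 and 47.3 to 52.0, and 24 to 71 and 380 to 660 genes (660 without H3K4me3 replicate 2). An overlap of 50% of the shorter peak and leaving out regions with RUNX2 on other days moved none of these values by those rules. Neither did wider or summit-based gene windows.

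With a replicate block, the number of peaks differed by -0.62 and the median width by 0.34 (log2; exact sign-flip p = 0.5 for both, the smallest that 2 pairs allow), and a crossed pairing, chosen after seeing the data, also left 0 of 2 differences below 0.05. Counting the RUNX2 lists as 1 sample and using genes with an annotated start alone (9720, 13 and 269 genes) were also chosen after seeing the data. Read depth and duplicate rates are unknown, and a region without a peak had none called at the depth of its library.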

Other observations

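Transfer RNA genes, transcribed by RNA polymerase III, were also under shared regions. Of 408 annotated tRNA genes, 226 lay in a region of all 4 lists, and 135 of the 14301 shared regions held at least one. That share is near the 54.6% of protein-coding genes with a shared region, so it does not set tRNA genes apart. The rules differ, since tRNA genes had to overlap the region and coding genes had a window of 1000 bp. None of the 125 regions with RUNX2 alone held a tRNA gene, nor did all but 1 of the 2160 with H3K4me3 alone. Of the 18387 regions with another mix, 8 did. The regions with RUNX2 alone are too few for this count to set them apart from the shared ones. tRNA genes occur in near-identical copies and clusters, so the counts per gene are uncertain.

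The share of promoters with the RUNX motif fell as CpG content rose, with or without a region. In shared promoters it was 18.3% at an observed to expected CpG ratio under 0.25, 16.1% from 0.25 to 0.5, 9.46% from 0.75 to 1 and 7.11% above 1. In promoters with no region it was 23.7% at a ratio under 0.25 and 6.48% from 0.75 to 1.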
